A study of Mus musculus with 6 samples.

Results

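The TNF superfamily genes described here were those whose symbol is Tnfsf, for a ligand, or Tnfrsf, for a receptor, followed by a number. In the tables, 32 gene symbols had such a name, and 29 of them had a count above 0 in at least 1 of the 6 libraries, out of 24142 gene symbols with a count. The 29 genes were 10 ligands, 18 receptors and Tnfsf13os, an RNA from the strand opposite to the ligand gene Tnfsf13. The other 3 symbols had no count in any library: Tnfsf4, which codes for OX40 ligand, Tnfrsf11b, which codes for the decoy receptor osteoprotegerin, and Tnfrsf19, which codes for the receptor TROY. A floor of 3 counts per library corresponds to 0.0692 CPM (counts scaled to the size of the library) in the smallest library. Since a count here stands for less than 1 sequenced fragment, a gene at 0 could lie above this floor. Relatives with other names, such as Tnf, Fas and Cd40, are given only as partners of these genes.

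The ligands of this superfamily are mostly trimeric proteins of the cell surface that can be cut off and act as cytokines. Many of their receptors carry a death domain, through which they can start cell death, or bind TRAF adaptors and signal to NF-kB, and some are decoys that bind a ligand without signalling. In myeloid cells, TNF and its receptors drive inflammation, RANK leads precursors toward osteoclasts, and the ligands BAFF and APRIL, which myeloid cells secrete, keep B cells and plasma cells alive.

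The libraries were made from polyadenylated RNA of splenic monocytes of adult female C57BL/6 mice, which had not been stimulated after isolation. Monocytes were obtained with a magnetic kit that removes other cell types and leaves the monocytes untouched. Mice of the Con group (n = 3) were given water by gavage, and mice of the Van group (n = 3) were given vancomycin at 2 mg per day, an antibiotic that is poorly absorbed from the gut. Gavage lasted 6 days in both groups, and the labels give a rest of 6 to 8 days before the spleens were taken. The study's text names the longer of these times for the RNA samples. The comparison addresses which genes of resting systemic monocytes differ after the intestinal bacteria were changed. The labels call the 3 libraries of a group biological replicates, and the p-values measure the spread between these libraries. In the study's methods, spleens of a cohort were combined for cell cultures, while for RNA only the number of mice per group is given.

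Each library held between 43383919 and 61834407 estimated counts, which corresponds to 16.3 to 23.2M fragments. All 11 monocyte markers were detected, with Csf1r, the receptor for the monocyte growth factor, between 528 and 643 FPKM (fragments scaled to transcript length and sequencing depth). The summed CPM of these 11 genes was 24950 to 25918 in Con and 24843 to 26177 in Van. Of these 11, 5 had a log2 fold change below 0 and 6 above, and 1 was called. This gene, Ccr2, the chemokine receptor of classical monocytes, fell from 731 ± 44.8 (SD, n = 3) to 411 ± 83.7 CPM (adjusted p = 0.0283, edgeR). The 7 erythroid markers summed to 54.3 to 109 CPM in Con and 174 to 385 CPM in Van, and the 6 splenic macrophage markers to 2001 to 2376 and 2445 to 2966 CPM. In Con and Van libraries, respectively, T cell markers summed to 41.6 to 55.2 and 32.6 to 44.0 CPM, and conventional dendritic cell markers to 104 to 148 and 108 to 126 CPM. In bulk samples, fewer cells of a type and less RNA per cell cannot be told apart.

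Among the ligands, Tnfsf13 and Tnfsf12, which code for APRIL and TWEAK, had the highest levels. The level of Tnfsf13 was 22.1 ± 6.79 FPKM in Con (SD, n = 3) and 20.6 ± 2.49 FPKM in Van. For Tnfsf12, a ligand with roles in tissue repair, the level was 17.6 ± 0.964 FPKM in Con and 19.3 ± 1.21 FPKM in Van. The ranges of these neighbours over the 6 libraries overlapped, and together they made up 69.0% to 82.7% of the summed FPKM of the 10 ligands. A fusion gene named Tnfsfm13 runs through both on the same strand, and shares 731 exon bases (48.3%) with Tnfsf12 and 983 exon bases (60.0%) with Tnfsf13. Tnfsfm13 itself was between 19.9 and 26.7 FPKM, so that the division of fragments among these 3 genes is uncertain.

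A second tier of ligands lay below, with no overlap of the 6-library ranges. It held Tnfsf13b (BAFF), with a mean of 3.46 FPKM, Tnfsf14 (LIGHT), with 3.03 FPKM, and Tnfsf9 (4-1BB ligand), with 2.81 FPKM, which overlapped with each other. Tnfsf10, the death ligand TRAIL, followed on its own with 1.08 FPKM and a range of 0.782 to 1.37 FPKM. The remaining 4 ligands had mean counts under 50, so that only their levels are given. Of these, Tnfsf18 (GITR ligand) had a mean of 0.336 FPKM, Tnfsf15 (TL1A) 0.196 FPKM and Tnfsf8 (CD30 ligand) 0.127 FPKM. Tnfsf11 codes for RANKL, which stromal cells and T cells are known to make. It was at 0 in 3 of 6 libraries and had a mean of 0.0175 FPKM.

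**Figure D1:**
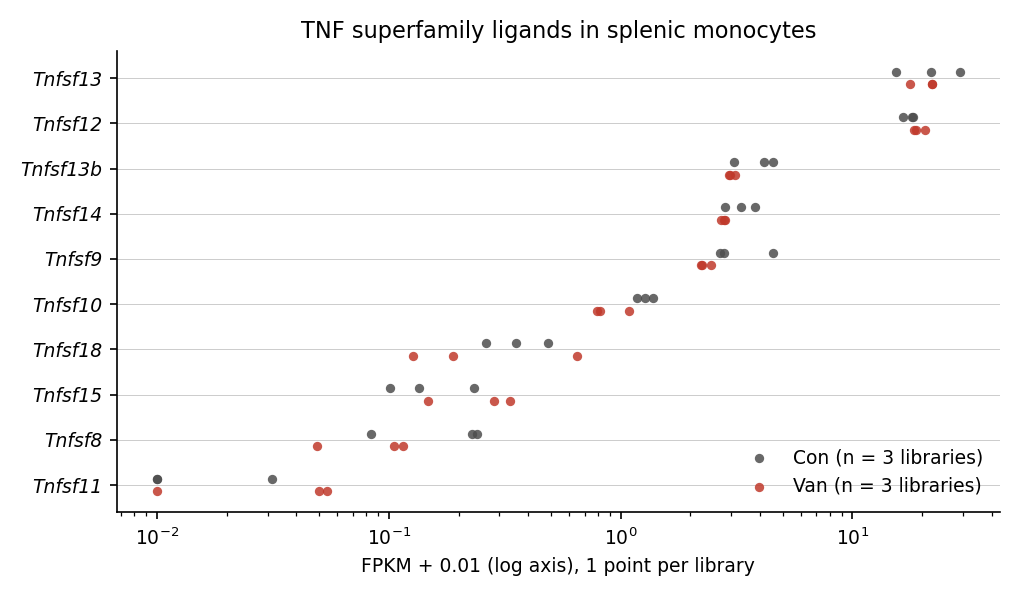
Level of each of the 10 ligands in each library, as FPKM + 0.01 on a log axis, with 3 Con and 3 Van libraries. Tnfsf13 and Tnfsf12 are at 15.4 FPKM or more in every library, and Tnfsf11 is at or near 0.

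The receptors covered a wider span of levels, and the receptors for TNF itself stood at the top. Tnfrsf1b, which codes for TNF receptor 2, had 372, 316 and 338 FPKM in Con replicates 1 to 3 and 379.5, 349.6 and 349.6 FPKM in Van replicates 1 to 3. Tnfrsf1a, which codes for the death domain receptor TNF receptor 1, had a mean of 160.0 FPKM and a range of 139.7 to 174 FPKM. Together they made up 79.3% to 83.8% of the summed FPKM of the 18 receptors in a library. Below them came Tnfrsf21 (death receptor 6) with 53.3 FPKM, Tnfrsf14 (HVEM, the receptor for LIGHT) with 29.0 FPKM and Tnfrsf13b (TACI, a receptor for BAFF and APRIL) with 16.2 FPKM. For each of these 5 receptors, the range over the 6 libraries was apart from that of the next one in the order.

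Tnfrsf12a (Fn14, the receptor for TWEAK) with 5.06 FPKM, Tnfrsf11a (RANK) with 3.67 FPKM and Tnfrsf8 (CD30) with 2.87 FPKM formed the next tier. Neighbours in this tier overlapped, and the tier as a whole was apart from Tnfrsf4. The 10 lowest receptors, from Tnfrsf4 (OX40) with 1.72 FPKM to Tnfrsf17 (BCMA, a receptor of plasma cells) with 0.126 FPKM, each overlapped with their neighbour in the order. Among them were the costimulatory receptors best known from activated T cells. Tnfrsf18 (GITR) had a mean of 0.757 FPKM, and Tnfrsf9 (4-1BB) of 0.448 FPKM. Tnfrsf25 (death receptor 3) had 0.413 FPKM, and Tnfrsf10b, the death receptor for TRAIL in the mouse, had 0.133 FPKM. Tnfrsf13c codes for the BAFF receptor of B cells, and its mean was 0.175 FPKM.

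**Figure D2:**
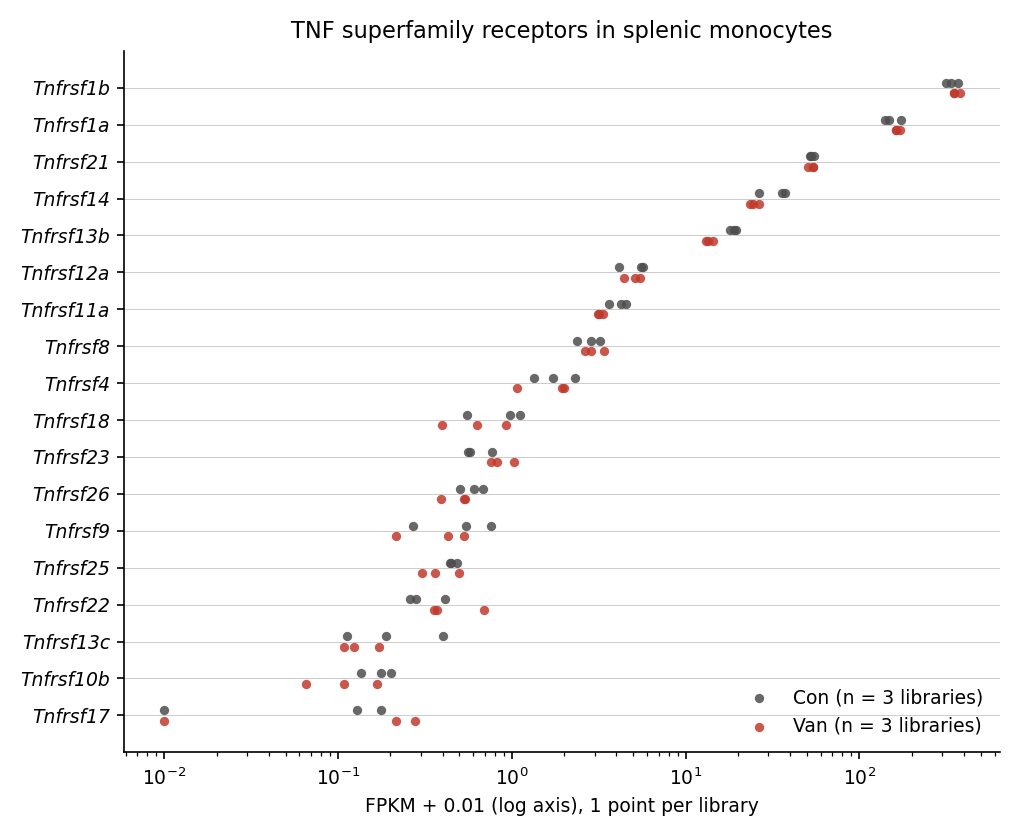
Level of each of the 18 receptors in each library, as FPKM + 0.01 on a log axis, with 3 Con and 3 Van libraries. Tnfrsf1b and Tnfrsf1a are at 139.7 FPKM or more in every library, and Con and Van points of Tnfrsf13b, Tnfrsf11a and Tnfrsf14 are apart.

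Several of these genes are neighbours in the genome (GRCm38), some with unlike and some with similar levels. Tnfrsf1b (chr4:145213463-145246870) lies near Tnfrsf8 (chr4:145267137-145315164), with mean levels of 351 and 2.87 FPKM. On chromosome 17, Tnfsf9 (chr17:57105325-57107757) and Tnfsf14 (chr17:57189492-57194177) had similar levels of 2.81 and 3.03 FPKM. Tnfrsf26, Tnfrsf22 and Tnfrsf23 lie close together on chromosome 7, between positions 143607659 and 143685872, and had means of 0.532, 0.385 and 0.742 FPKM. Tnfrsf22 and Tnfrsf23 code for decoy receptors for TRAIL that occur in the mouse. Transcripts of Tnfrsf22 share a stretch of 766 bases at 97.1% to 97.9% identity with other transcripts, among them Tmem72, so that its counts are uncertain.

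Set against their known partners, the ligands and receptors formed unequal pairs. For TACI both sides were present, with APRIL at 21.4 and BAFF at 3.46 FPKM against Tnfrsf13b at 16.2 FPKM, while the other receptors of BAFF and APRIL, Tnfrsf13c and Tnfrsf17, were at most 0.393 and 0.266 FPKM. TWEAK at 18.4 FPKM stood against Fn14 at 5.06 FPKM, and LIGHT at 3.03 FPKM against HVEM at 29.0 FPKM and Ltbr, the lymphotoxin beta receptor, at 40.9 FPKM. In other pairs the receptor was present and its ligand was not or barely seen. RANK had 3.67 FPKM against 0.0175 FPKM of RANKL, CD30 had 2.87 FPKM against 0.127 FPKM of its ligand, and OX40 had 1.72 FPKM against a ligand listed at 0. The reverse held for TRAIL, at 1.08 FPKM against 0.133 FPKM of its death receptor, and for 4-1BB ligand, at 2.81 FPKM against 0.448 FPKM of 4-1BB. These are RNA levels in 1 cell preparation and give no measure of binding.

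**Figure D3:**
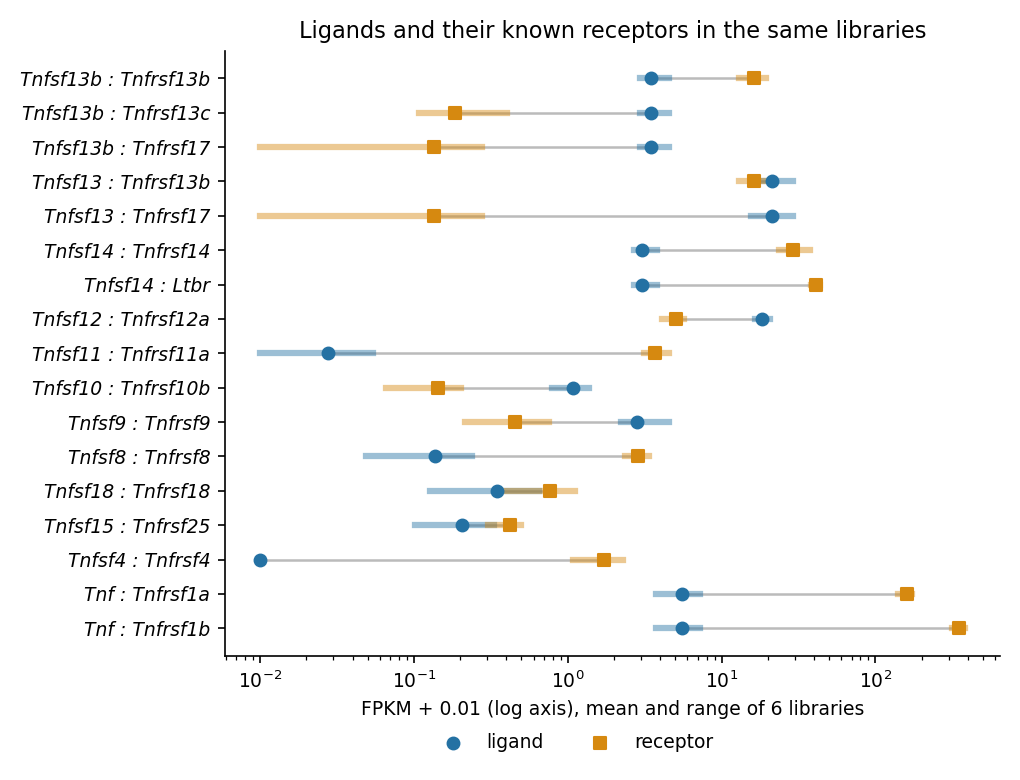
Mean FPKM + 0.01 (log axis) of each ligand (circle) and its known receptor (square), with bars from the lowest to the highest of the 6 libraries. Ligand and receptor bars overlap only for APRIL with TACI, GITR ligand with GITR, and TL1A with death receptor 3.

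Between Van and Con, 2 of the 13 receptors with a mean count of at least 50 were called, and both fell in Van. These were Tnfrsf13b and Tnfrsf11a. Calls were made where the edgeR quasi-likelihood p, adjusted by Benjamini-Hochberg over the 16138 genes tested, did not exceed 0.05. Of these genes, 2.00% were called, 0.917% lower and 1.08% higher in Van. None of the 6 ligands with such a count was called by edgeR, 2 of them had an unadjusted p under 0.05, and DESeq2, which called 1033 genes in all against 322 with edgeR, called 1, Tnfsf10. Of the 13 receptors, 4 had an unadjusted p under 0.05, 3 of them lower and 1 higher in Van, against 16.5% of all genes tested, 8.14% lower and 8.37% higher. Among the 6 ligands, 5 had a log2 fold change below 0 and the median was -0.33, and among the 13 receptors, 8 were below 0 and the median was -0.06. Over all genes tested, 50.4% were below 0 and the median was -0.0014. The CPM of Con and Van libraries did not overlap for 3 ligands and 3 receptors, all lower in Van, against 22.5% of all genes in either direction and 11.0% lower in Van. With 3 libraries against 3, an exact permutation test cannot go below a p of 0.1. Any gene whose groups do not overlap has this p, so that it adds nothing for these 6 genes.

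Tnfrsf13b (ENSMUSG00000010142, chr11:61126755-61149372, plus strand) had the smallest p of the receptors. It codes for TACI, a receptor of B cells and some myeloid cells that binds BAFF and APRIL. Its values were 54.2, 49.9 and 52.1 CPM in Con replicates 1 to 3, and 35.2, 33.3 and 39.3 CPM in Van replicates 1 to 3. Every Van library was below every Con library, with a gap between 39.3 and 49.9 CPM. The log2 fold change was -0.54 ± 0.08 (SE), with a 95% confidence interval of -0.71 to -0.36 and an adjusted p of 0.0192 with edgeR. In FPKM the levels were 19.6, 18.0 and 19.1 in Con and 13.4, 13.1 and 14.3 in Van, again without overlap. When each library was left out in turn, the log2 fold change stayed between -0.60 and -0.48, and the adjusted p from edgeR was 0.0358 to 0.0890, which kept the call only without Van replicate 3. In the limma fits the adjusted p was 0.0635 to 0.119.

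B cell markers moved in the same direction as Tnfrsf13b, as did most markers of several other cell types. Over all marker lists, 52 of the 80 markers tested had a log2 fold change below 0 and 28 above. Below 0 were 6 of 7 T cell, 5 of 6 neutrophil and 5 of 6 platelet markers. All 7 erythroid and all 6 splenic macrophage markers were above 0. Of 11 B cell markers, 9 could be tested, all 9 had a log2 fold change below 0 and 2 had an unadjusted p under 0.05, where 50.4% of all genes tested were below 0 and 8.14% were lower at that p. The smallest adjusted p was 0.145 from edgeR, for Blk, a kinase of B cells. Their summed level was 47.9 to 49.9 CPM in Con and 37.2 to 40.4 CPM in Van, without overlap. In FPKM the list summed to 17.2 to 20.05 in Con and 14.4 to 16.2 in Van. The highest of its genes were Cd79b, part of the B cell receptor, with 7.25 to 9.99 FPKM, and the inhibitory receptor Cd22, with 4.17 to 6.28 FPKM. Ms4a1 (CD20) was at most 0.397 FPKM and Pax5 at most 0.114 FPKM, and no marker was at 0 in every library. The plasma cell markers summed to 72.7 to 110.0 CPM in Con and 58.1 to 78.6 CPM in Van. The part of such cells in the difference of Tnfrsf13b was not tested. The other receptors of the same ligands, Tnfrsf13c and Tnfrsf17, had mean counts of 21.4 and 6.26 and are too low for a statement on change.

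Tnfrsf11a (ENSMUSG00000026321, chr1:105780718-105847981, plus strand) codes for RANK, through which RANKL turns myeloid precursors into osteoclasts. It had 22.9, 21.4 and 22.1 CPM in the Con replicates and 17.3, 16.0 and 17.7 CPM in the Van replicates. The groups did not overlap, and the spread within each was small. The log2 fold change was -0.38 ± 0.08 (SE), with a 95% confidence interval of -0.56 to -0.21 and an adjusted p of 0.0471 with edgeR, close to the threshold. It was called in none of the 6 fits that left out a library, where the adjusted p from edgeR was 0.0996 to 0.179 and the unadjusted p at most 0.00525. The call was also lost without the filter on low counts (adjusted p = 0.0581, edgeR), with a replicate block (0.108, edgeR) and in the limma fits (0.177 to 0.233). Clec9a, a marker of conventional dendritic cells, also fell, from 10.1 ± 1.37 to 4.66 ± 0.424 CPM (adjusted p = 0.0131, edgeR). It was the 1 marker called of the 6 for these cells, against 2.00% of all genes tested. The 6 markers summed to overlapping ranges in Con and Van. Of the 6, 5 were below 0 and 1 above, with a median of -0.19. At an unadjusted p under 0.05 from edgeR, 2 were lower and 1 higher in Van, against 8.14% and 8.37% of all genes tested. The part of conventional dendritic cells in the difference of Tnfrsf11a was not tested.

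The sequences before the start sites of these called receptors are shown because both fell, with Tnfrsf1b beside them as the receptor with the highest level, which was not called. Each is the 250 bases before the RefSeq start (GRCm38.p6), 5′ to 3′ on the strand of the gene. They lie at chr11:61126505-61126754 (plus) for Tnfrsf13b, chr1:105780473-105780722 (plus) for Tnfrsf11a and chr4:145246871-145247120 (minus) for Tnfrsf1b. Capitals mark AGGAAG, a core of binding sites of ETS factors such as PU.1, and GGGCGG, the GC box bound by SP1, or their reverse complements CTTCCT and CCGCCC.
Tnfrsf13b: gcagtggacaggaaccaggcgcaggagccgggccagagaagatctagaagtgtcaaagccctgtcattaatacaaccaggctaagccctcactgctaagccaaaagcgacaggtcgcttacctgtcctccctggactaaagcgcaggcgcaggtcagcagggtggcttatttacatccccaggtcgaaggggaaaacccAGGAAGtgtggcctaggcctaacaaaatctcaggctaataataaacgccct
Tnfrsf11a: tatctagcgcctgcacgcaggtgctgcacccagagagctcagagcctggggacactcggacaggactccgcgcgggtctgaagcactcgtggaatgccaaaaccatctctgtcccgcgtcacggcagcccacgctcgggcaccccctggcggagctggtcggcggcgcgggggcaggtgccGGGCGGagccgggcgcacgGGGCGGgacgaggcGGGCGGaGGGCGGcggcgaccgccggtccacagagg
Tnfrsf1b: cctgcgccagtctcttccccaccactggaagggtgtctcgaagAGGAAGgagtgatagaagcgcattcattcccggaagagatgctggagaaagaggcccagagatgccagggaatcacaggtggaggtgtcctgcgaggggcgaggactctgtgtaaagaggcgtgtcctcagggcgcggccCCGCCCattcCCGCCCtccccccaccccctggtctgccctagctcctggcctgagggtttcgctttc

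The promoters of the called receptors had different makeups. Tnfrsf13b had 1 AGGAAG, which began 51 bases before the start, no GGGCGG and a GC content of 54.0%, close to the median of 52.4% over all 32851 RefSeq promoters. Tnfrsf11a had 4 GGGCGG on the plus strand, at 69, 50, 36 and 29 bases before the start, no AGGAAG and a GC content of 73.6%. Tnfrsf1b had 1 AGGAAG, 2 GC boxes in reverse and a GC content of 62.8%. On either strand, AGGAAG occurred in 29.5% and GGGCGG in 32.7% of all promoters of this length, and TATAAA, which none of these 3 held, in 12.4%. A match of letters is a description and not a measured binding site. RefSeq promoters were found for 23 of the 29 genes.

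**Figure D4:**
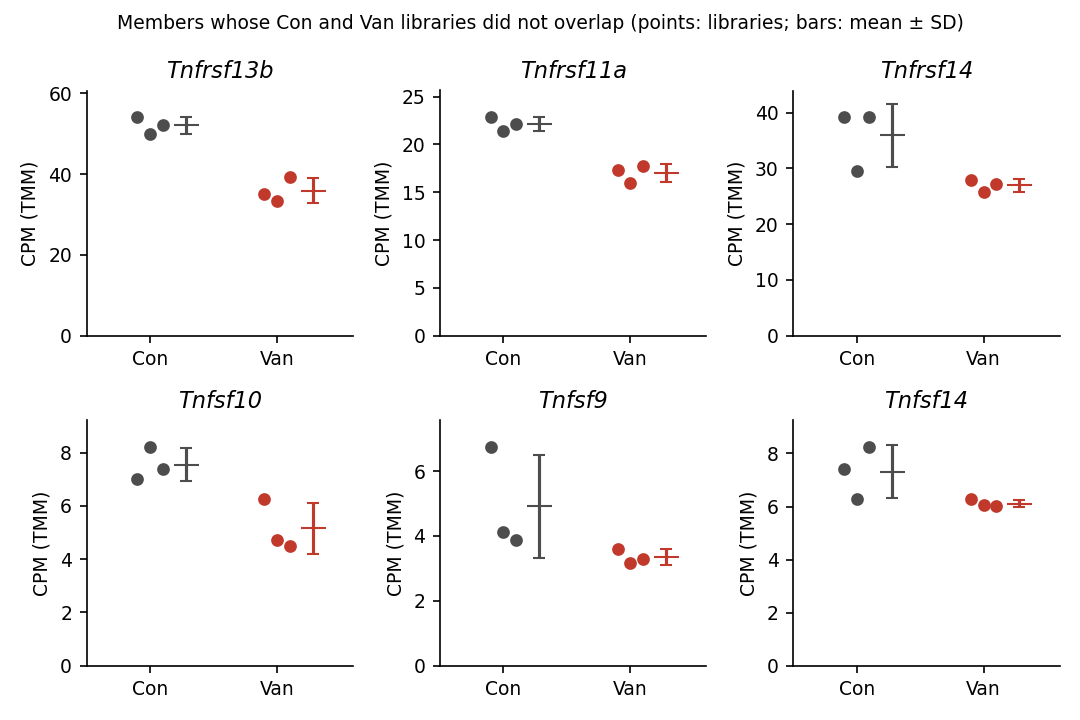
CPM of the 6 genes whose Con and Van libraries did not overlap, with 1 point per library and the mean ± SD (n = 3) beside the points. Axes start at 0, and all 6 genes were lower in Van, of which only Tnfrsf13b and Tnfrsf11a were called by edgeR.

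Tnfrsf14, which codes for HVEM, had 39.2, 29.5 and 39.3 CPM in Con and 27.9, 25.7 and 27.3 CPM in Van. All Van libraries were below the Con libraries, with Con replicate 2 only slightly above them. Its log2 fold change was -0.41 ± 0.11 (SE), with an adjusted p of 0.111 from edgeR and 0.0174 from DESeq2. With a library left out, the estimate ranged from -0.54 to -0.34 and edgeR's adjusted p from 0.0452 to 0.316. Of these 6 fits, only the one without Con replicate 2, at -0.54 and 0.0452, called Tnfrsf14. Of the 11 alternatives with all libraries, only DESeq2 called it. HVEM binds LIGHT as well as the inhibitory receptor BTLA, and the other receptor for LIGHT, Ltbr, had a log2 fold change of 0.01 with a 95% confidence interval of -0.16 to 0.18.

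The receptors with the highest levels had narrow intervals around 0. For Tnfrsf1b the log2 fold change was 0.06, with a 95% confidence interval of -0.11 to 0.23, and for Tnfrsf1a it was 0.09, with an interval of -0.10 to 0.29. For Tnfrsf21 it was -0.02, with an interval of -0.15 to 0.10. None of these passed the test, and the intervals exclude a change of the size estimated for Tnfrsf13b. With a library left out, the estimates ranged from 0.013 to 0.13 for Tnfrsf1b and from 0.032 to 0.19 for Tnfrsf1a.

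Among the lower receptors, Tnfrsf23 had the largest positive estimate. Its values were 2.66, 1.63 and 1.76 CPM in Con and 2.48, 3.00 and 3.46 CPM in Van, where Con replicate 1 lay within the Van range. The log2 fold change was 0.56 ± 0.25 (SE), with an unadjusted p of 0.0498 and an adjusted p of 0.302 from edgeR. Its neighbours on chromosome 7, Tnfrsf22 and Tnfrsf26, had log2 fold changes of 0.43 and -0.31 with overlapping groups, and that of Tnfrsf22 turned to -0.22 without Van replicate 3. Tnfrsf18 had a log2 fold change of -0.50 with a wide 95% confidence interval of -1.44 to 0.44. The estimate ranged from -0.22 without Van replicate 3 to -0.85 without Van replicate 2, and that of Tnfrsf26 was -0.15 without Van replicate 2. Of the exon bases of Tnfrsf18, 414 lie opposite to another gene, Gm16008. Tnfrsf4, Tnfrsf8 and Tnfrsf12a, with log2 fold changes of -0.12, 0.05 and -0.06, also overlapped between the groups. The 5 receptors with mean counts under 50, Tnfrsf9, Tnfrsf25, Tnfrsf13c, Tnfrsf10b and Tnfrsf17, had mean counts between 6.26 and 44.6.

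The ligand with the smallest p was Tnfsf10, which codes for TRAIL, a ligand that can kill cells through death receptors. It had 7.02, 8.22 and 7.40 CPM in Con and 6.26, 4.71 and 4.50 CPM in Van. The groups did not overlap, and Van replicate 1 was nearest to the Con libraries. The log2 fold change was -0.55 ± 0.16 (SE), with a 95% confidence interval of -0.91 to -0.19 and an adjusted p of 0.127 from edgeR and 0.0397 from DESeq2. In the 6 fits with a library left out, the estimate ranged from -0.71 to -0.46. None of these called Tnfsf10, and the adjusted p from edgeR was 0.0758 to 0.342. Over the 11 alternatives with all libraries, the estimate ranged from -0.56 to -0.25, and only DESeq2 called the gene.

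Tnfsf9, which codes for 4-1BB ligand, a costimulator of T cells on antigen-presenting cells, depended on 1 library. Its values were 6.75, 4.12 and 3.86 CPM in Con and 3.61, 3.16 and 3.28 CPM in Van. The Con group was apart from Van, but Con replicate 1 was far above the other Con libraries. The log2 fold change was -0.55 ± 0.23 (SE) with an adjusted p of 0.277 from edgeR, and it was -0.25 without Con replicate 1. Of its exon bases, 192 lie opposite to Gm11110.

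Neither ligand of B cell survival was called. Tnfsf13b, which codes for BAFF, had 5.11, 4.64 and 3.38 CPM in Con and 3.45, 3.22 and 3.26 CPM in Van. Con replicate 3 lay within the Van range, so that the groups overlapped. Its log2 fold change was -0.40 ± 0.18 (SE), with an adjusted p of 0.323 from edgeR. Tnfsf13 (APRIL) had 27.3, 38.5 and 49.2 CPM in Con and 30.9, 37.3 and 38.5 CPM in Van, with Con libraries both below and above the Van range. Its log2 fold change of -0.11 had an adjusted p of 0.847 from edgeR, and it turned to 0.11 without Con replicate 3. The opposite-strand RNA Tnfsf13os had a level of 13.8 FPKM and a log2 fold change of -0.05, and 221 of its exon bases lie opposite to Tnfsf13.

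LIGHT and TWEAK had estimates of opposite sign. Tnfsf14 had 7.40, 6.29 and 8.25 CPM in Con and 6.27, 6.04 and 6.01 CPM in Van, which was apart by a narrow margin in CPM and overlapped in FPKM. Its log2 fold change was -0.26 ± 0.13 (SE), with an adjusted p of 0.385 from edgeR, and it was -0.16 without Con replicate 3. Tnfsf12 was the only ligand at these counts with a positive estimate. It had 28.5, 30.7 and 30.7 CPM in Con and 31.8, 30.7 and 34.5 CPM in Van, which overlapped, with a log2 fold change of 0.11 and a 95% confidence interval of -0.06 to 0.27. In FPKM its Van libraries were above the Con libraries.

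**Figure D5:**
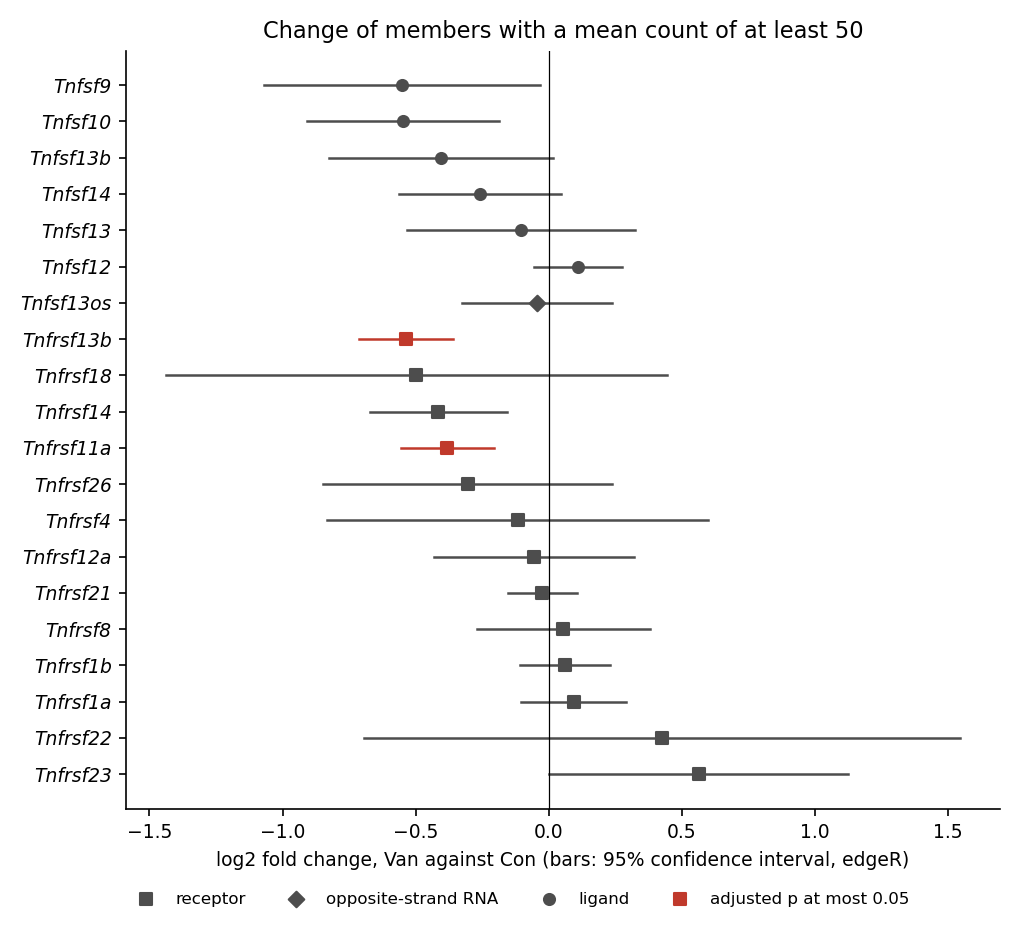
Log2 fold change (Van against Con) of the 20 genes with a mean count of at least 50, with 95% confidence intervals from edgeR. Circles are ligands, squares receptors and the diamond Tnfsf13os, and the 2 called receptors, Tnfrsf13b and Tnfrsf11a, are in red at -0.54 and -0.38.

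The superfamily members with other names included the gene for TNF itself, whose secretion by stimulated monocytes the study measured. Tnf had 13.7, 8.05 and 9.64 CPM in Con and 14.1, 11.4 and 7.29 CPM in Van, with groups that overlapped. Its log2 fold change was 0.07, with a wide 95% confidence interval of -0.52 to 0.66. Of the 7 other ligands, 3 could be tested, Tnf, Lta and Ltb. Ltb (lymphotoxin beta) had the smallest p of these at 0.530, and its log2 fold change was -0.07. Lta, Fasl, Cd70 and Eda were each at most 0.167 FPKM on average, and Cd40lg had no count.

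Of the 8 other receptors, 6 could be tested and 1 was called, against 2.00% of all genes tested. Relt, a receptor of hematopoietic cells that binds TRAF1, had 99.2, 101 and 84.0 CPM in Con and 131, 123 and 141 CPM in Van. It rose in all Van libraries, with a log2 fold change of 0.47 ± 0.09 (SE) and an adjusted p of 0.0351 from edgeR, which was 0.0703 to 0.116 with a library left out. A stretch of 525 bases at 96.4% identity is shared with Gm20949. Cd40, the receptor through which T cells activate antigen-presenting cells, had 36.9, 28.5 and 30.9 CPM in Con and 24.2, 21.9 and 18.3 CPM in Van. The groups did not overlap, and the log2 fold change was -0.58 ± 0.13 (SE) with an adjusted p of 0.0609 from edgeR and 0.0011 from DESeq2. With edgeR it was called at an adjusted p of 0.0393 without the filter on low counts and 0.0470 with at least 10 counts in every library. Cd40 is also a gene of B cells, whose markers had the lower sums in Van given beside Tnfrsf13b. The part of B cells in the difference of Cd40 was not tested. Fas, the death receptor for Fas ligand, had a log2 fold change of 0.22 with an adjusted p of 0.207 from edgeR, and Ltbr and Cd27 overlapped between the groups. Ngfr, Eda2r and Edar were at 0.101 FPKM, 0.00156 FPKM and 0.

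Of all 48 partner genes, 42 could be tested, 21 with a log2 fold change below 0 and 21 above, 1 called lower and 1 called higher, where 0.917% of all genes tested were called lower and 1.08% higher. Besides Relt, the gene called was Mlkl, the pore-forming effector of necroptosis that acts downstream of death receptors. It had 16.5, 15.6 and 17.1 CPM in Con and 11.2, 11.5 and 12.7 CPM in Van. All Van libraries were below all Con libraries, with a log2 fold change of -0.47 ± 0.09 (SE) and an adjusted p of 0.0388 from edgeR, which was 0.0702 to 0.157 with a library left out. The other 5 genes of death signalling, Fadd, Casp8, Cflar, Bid and Ripk3, were not called by edgeR, and DESeq2 called Bid.

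Signal transduction below the receptors showed no called gene by edgeR in 4 further lists, and the count at an unadjusted p under 0.05 was 0 for 3 of them, against 2.00% of all genes called and 16.5% at that p. DESeq2 called 1 gene of these lists, Cyld. Of 13 receptor adaptors and ubiquitin ligases, 5 were below and 8 above 0, and the smallest p was 0.0967, for the adaptor Traf5 with a log2 fold change of -0.19. Of the 4 genes of the noncanonical NF-kB pathway, which RANK, Ltbr and CD40 are known to use, the kinase Chuk had the smallest p of 0.0930, at -0.14. Of 5 deubiquitinases and related genes, 2 had an unadjusted p under 0.05, both lower in Van (8.14% of all genes), and the smallest belonged to Cyld, which removes ubiquitin chains from receptor complexes, at -0.24 with an adjusted p of 0.0715. Of 5 genes of ligand and receptor shedding, Rhbdf2, a partner of the TNF-releasing protease, had the smallest p of 0.171, at -0.09.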

How the data were processed

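The 3 Con and 3 Van libraries of spleen monocytes were used, and VanLip libraries were not used here. The libraries were assigned to the study's groups by their treatment labels, since its data statement cites a different deposit. The authors aligned reads to GRCm38 with HISAT2 2.2.1 and SAMtools 1.9, made the deposited FPKM values with StringTie 2.1.3 and Ballgown, and converted them through tximport to the deposited estimated counts. The libraries were stranded, and the annotation release and whether counting used the strand are not given in the sources used here. Of the count values above 0, 52.3% to 55.0% per library became whole numbers when multiplied by 75 (tolerance 0.05), against 9.56% to 9.98% when multiplied by 74. A count was therefore read as 75 bases of coverage, and the fragment totals rest on this. The reads are stated to be pairs of 100 bases, so that a count stands for less than 1 fragment.

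Counts were rounded and fitted in R 4.3.3 with edgeR 4.0.16 (TMM, expression filter at a minimum count of 10, group as the only term). Levels were compared between genes in FPKM and between libraries in CPM. Genes with a mean count of at least 50 are given with changes. The named genes were all family members by symbol, the other ligands and receptors, partners called and the smallest p of each partner list. The members and lists were chosen with earlier results of these data known. Coordinates and overlaps are from GENCODE M21, and near copies are transcripts that match another gene's over 200 bases or more at 95% identity or more.

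Alternatives were DESeq2 1.42.0, other size factors and filters, limma 3.58.1 on quantile-normalized log2 FPKM, a replicate block, fragment scale, 1 identifier per symbol and leaving out each library. Tests were tested on simulated data for this comparison (16138 genes), where edgeR recovered 33 of 100 genes changed by a log2 fold change of 0.5 and 59 of 100 changed by 1, with 12 false among 104 calls.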

Additional observations from a re-analysis of the deposited data

How the results depend on the processing

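Both called receptors, Tnfrsf13b and Tnfrsf11a, were lower in Van under every alternative, and their calls depended on the test and on single libraries. The number of genes called, 322 with edgeR, was 1033 with DESeq2, 110 with a replicate block, 21 and 4 with limma on log2(FPKM + 1) and log2(FPKM + 0.1), 24 with limma without a filter, and 21 to 136 with a library left out. Receptors called, 2 with edgeR, were 3 with DESeq2, which added Tnfrsf14, 1 without a filter on low counts, 1 with the replicate block, 0 with each of the 3 limma fits and 0 to 1 with a library left out. Ligands called, 0 with edgeR, were 1 with DESeq2 and 0 under each other alternative, and ligands at an unadjusted p under 0.05, 2 with edgeR, were 1 in each limma fit and 1 to 4 with a library left out. Partner genes called, 2 with edgeR, were 5 with DESeq2, 3 without a filter on low counts and 3 with at least 10 counts in every library, which both added Cd40, 0 with the replicate block, 0 in each limma fit and 0 with a library left out. Correlations between libraries of the same number were 0.025, -0.0019 and -0.073, so that the numbers do not pair the libraries.

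Of 408 single-gene estimates over 24 genes and 17 alternatives, 351 kept direction and side of the threshold, 39 were no longer called, 6 were newly called and 12 changed sign, all with a library left out. The ranges were -0.19 to 0.041 for Tnfrsf12a, -0.050 to 0.0046 for Tnfrsf21, -0.22 to 0.82 for Tnfrsf22, -0.27 to 0.14 for Tnfrsf4, -0.061 to 0.16 for Tnfrsf8, -0.30 to 0.11 for Tnfsf13 and -0.12 to 0.039 for Tnfsf13os. In the simulation, limma recovered 2 of 100 genes changed by 0.5, against 33 with edgeR and 50 with DESeq2, and false calls were 2 of 46, 12 of 104 and 30 of 144. The cause of the differences between the alternatives was not tested. With 3 libraries a group, genes under a mean count of 50 are too shallow for a statement on change.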
